A study of Sus scrofa with 6 samples.

Results

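Type 2 innate lymphoid cells (ILC2s) were sought in single-cell RNA-sequencing libraries of skin and were chosen by their counts of unique molecular identifiers (UMIs, 1 per captured RNA molecule) of 14 genes. A cell passed this gate when it held at least 1 UMI of Il7r and at least 1 UMI of Gata3 or Il1rl1, and no UMI of Cd3d, Cd3e, Cd3g, Trdc, Ncr1, Klrb1c, Cpa3, Csf1r or Csf3r. It also held at most 2 UMIs of Krt14 and at most 2 UMIs of Col1a2. The gate held 338 of 83559 cells kept from 6 libraries, and these 338 are called the gated cells. Cells were kept if they held 500 gene UMIs or more from 300 genes or more, with no more than 20% of UMIs from mitochondrial genes.

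The labels describe unsorted skin of red duroc pigs and 1 library for each of 6 groups. Skin of 4 groups received a 1 mg transdermal patch of deferoxamine (DFO), an iron chelator, on different schedules: pretreatment, for 2 weeks ahead of radiotherapy; continuous, for 18 weeks across the experiment; chronic, for 4 weeks after recovery; and acute, with 12 weeks of recovery. The other 2 groups were irradiated skin and normal skin, both labelled without DFO. Age, sex and the number of animals behind each library are not given in the sources used here. All 32285 gene features of the files carry mouse Ensembl identifiers, and the hashtag antibodies are named as anti-mouse, although the labels name the pig and the series title speaks of a treatment against JUN and of adhesions after surgery. The species of the cells was not settled here. Gene names below are those of the mouse as the files give them.

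ILC2s are tissue-resident lymphocytes without antigen receptors that depend on interleukin 7 (IL-7) signalling and on the transcription factor GATA3. The barrier cytokines IL-33, IL-25 and thymic stromal lymphopoietin activate them, and they answer with IL-5, IL-13, amphiregulin and other effectors that act on eosinophils, mucosal and skin epithelium and macrophages. In mouse skin they sit in the dermis and around hair follicles and have been described mainly in allergic inflammation and wound repair. Regulatory T cells and T helper 2 cells use GATA3 and the IL-33 receptor (Il1rl1) too, so a gate on these genes depends on the absence of T cell transcripts.

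The libraries differed in depth. Gene UMIs totalled 18611144, 41423107, 37470412, 49408533, 54966435 and 41136493 in the pretreatment, continuous, chronic, acute, irradiated and normal libraries. Gated cells had a median of 8946 UMIs in the pretreatment library and of 1258 to 1734 in the other 5. Pairs of libraries shared 0.133% to 0.801% of the kept cell barcodes of the smaller library, and no gated cell's barcode was gated in another library. Antibody hashtags were present in the chronic, acute, irradiated and normal libraries, and 98.3% of the kept cells of the acute library held more than 1 of them, against 20.0% in chronic, 33.9% in irradiated and 11.0% in normal skin. Which animals or samples these hashtags stand for is not given in the sources used here, so they were not used to divide the libraries.

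The ILC2 label held only in part. Of the 338 gated cells, 179 entered through Gata3 alone, 114 through Il1rl1 alone and 45 through both. Among ILC2 genes that the gate did not use, Rora, a transcription factor that ILC2 development needs, was seen in 215 cells. Id2, a repressor that all innate lymphoid lineages need, was seen in 208, the costimulatory receptor gene Icos in 192 and the IL-2 receptor gene Il2ra in 134. Rarer were Il18r1 (100 cells), Thy1 (82), Areg (78), Arg1 (47), Klrg1 (16), the mouse ILC2 gene Hs3st1 (14), Il17rb (6), which encodes the IL-25 receptor, and Ccr8 (5). Ptgdr2, the prostaglandin D2 receptor often used to sort ILC2s, was seen in 0 of the 338 gated cells, which allows a share of cells with a UMI of up to 0.888% (3 counts of 338), and had 13 UMIs in all kept cells together.

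Transcripts used as markers of other lineages were frequent among the gated cells. Constant-region genes of the T cell receptor (Trac, Trbc1, Trbc2 and the Tcrg genes), which the gate did not exclude, had at least 1 UMI in 155 of the 338 cells and at least 2 UMIs in 78. By library such cells made up 42.1% of the gated cells in pretreatment, 37.3% in continuous, 44.4% in chronic, 48.9% in acute, 47.6% in irradiated and 50% in normal skin. The share in neutrophils, which should lack these genes, was 0% (of 16 cells) in pretreatment and 3.30%, 4.92%, 5.81%, 5.95% and 4.57% in the other libraries in the same order, at median depths of 4793, 2816, 2119, 1210, 1466 and 1291 UMIs. T cell receptor transcripts were thus more frequent in gated cells than in neutrophils of each library. Natural killer cells, described below and gated without Cd3 too, also held such RNA. A summed T cell list that includes these genes was at 403 to 786 CPM (counts per 1000000 gene UMIs) in them. In gated cells it was at 176 CPM in pretreatment and 842 to 1396 CPM in the other libraries. Which cells this RNA came from was not tested. Foxp3, the factor that defines regulatory T cells, was seen in 41 gated cells, of which 33 were among the 159 with Il1rl1 and 8 among the 179 with Gata3 alone. Ptprc, the gene of the pan-leukocyte antigen CD45, was detected in 219 of the 338.

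The pretreatment library went against the label most clearly. Cd209a, a gene of dendritic cells, was seen in 10 of its 19 gated cells (52.6%) and in 3 gated cells elsewhere, with 0 in the chronic and irradiated libraries. The summed level of the dendritic marker list was 32230 CPM (counts of the listed genes per 1000000 gene UMIs of the gated cells) in pretreatment, against 5356 in continuous, 2016 in chronic, 3962 in acute, 4396 in irradiated and 4821 in normal skin. In the T cells with Cd4 described below the same list stood at 169 to 2465 CPM. The summed level of 16 ILC2 markers other than the 3 genes required by the gate was 2710 CPM in pretreatment and 4764 to 7940 CPM in the other 5 libraries. The same 16 genes stood at 5578 to 6448 CPM in the T cells with Cd4 and at 4524 to 10580 CPM in gamma-delta T cells, ranges that overlap that of the gated cells. A tighter gate that also excluded T cell receptor, Foxp3, Flt3, Xcr1, Cd209a and Fscn1 UMIs left 145 of the 338 cells and 1 of the 19 in pretreatment. Results that rest on pretreatment are therefore given as those of its gated cells, and not of ILC2s.

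**Figure D1:**
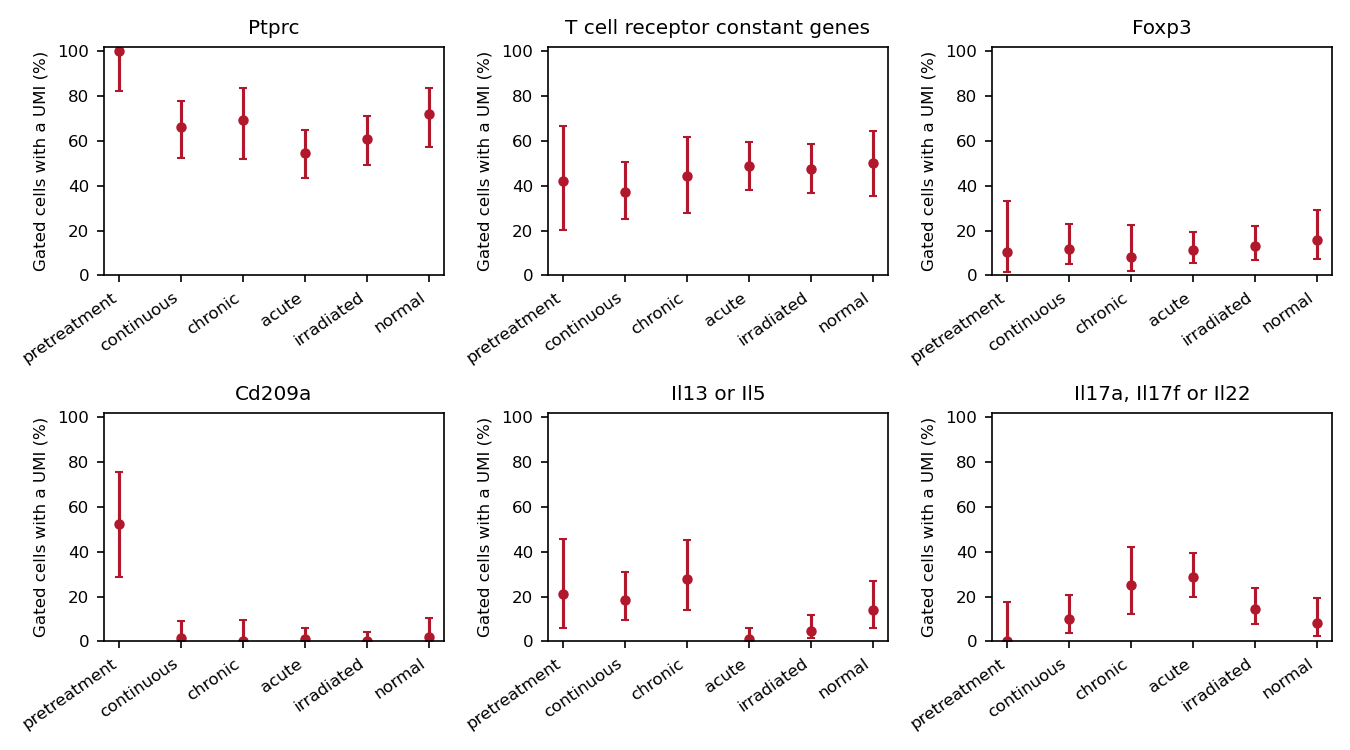
Percent of gated cells with at least 1 UMI of 6 genes or gene groups (panels) in each library (x axis), with bars for the exact 95% binomial interval, which covers counting error only. T cell receptor transcripts stood at 37.3% to 50% in every library, Cd209a reached 52.6% in pretreatment and at most 2.0% elsewhere, and Il13 or Il5 ranged from 1.11% in acute to 27.8% in chronic skin.

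The thresholds of the gate were close to many cells. Il7r rested on 1 UMI in 194 of the 338 gated cells, Gata3 and Il1rl1 together on 1 UMI in 200, and both on 1 UMI in 130. Outside the gate, 699 cells failed only because they held Cd3 UMIs, of which 184 held 1 and 515 held 2 or more. A further 1218 cells failed only for Il7r, 2173 only for Gata3 and Il1rl1, 242 only for Csf1r or Csf3r, 51 only for Col1a2, 19 only for Krt14, 15 only for Cpa3, 11 only for Trdc and 5 only for Ncr1 or Klrb1c. At the threshold of Col1a2, 15 gated cells held 2 UMIs and 4 cells just outside held 3, and at that of Krt14 1 cell stood on each side. In neutrophils, Il7r was seen in 2.12% to 6.29% of cells, Gata3 in 0% to 1.38% and Il1rl1 in 1.66% to 6.25%. The share of gated cells that such background accounts for was not tested.

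Levels also differed with the gene by which a cell entered the gate, and for Cd74, Rora and Icos the gap was smaller when pretreatment was left out, a choice made after seeing the data. Gated cells with Gata3 alone (179 cells) had 1515 CPM of Rora, 1493 CPM of Icos, 300 CPM of Thy1 and 355 CPM of Il17a. Those with Il1rl1 (159 cells) had 639 CPM of Rora, 615 CPM of Icos, 59.6 CPM of Thy1 and 88.2 CPM of Il17a. The invariant chain gene Cd74, which serves antigen presentation, ran the other way, at 1278 CPM with Gata3 alone and 11360 CPM with Il1rl1. Foxp3 was at 43.7 CPM with Gata3 alone and at 112 CPM with Il1rl1. The type 2 cytokine gene Il5 was at 142 CPM with Gata3 alone and 131 CPM with Il1rl1. These are sums over cells of all libraries, unequal in depth, given with no test. Without pretreatment, Cd74 was at 1462 CPM with Gata3 alone (171 cells) and 3014 CPM with Il1rl1 (148 cells), Rora at 1459 and 1038 CPM, Icos at 1301 and 974.5 CPM, Thy1 at 291 and 98.6 CPM and Il17a at 411.5 and 146 CPM. Il5 was then at 76.0 CPM with Gata3 alone and 217 CPM with Il1rl1, and Foxp3 at 38.0 and 177.5 CPM.

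Gated cells made up a small share of the skin, and the share was largest in pretreatment. It was 1.27% (exact 95% binomial interval 0.765 to 1.97) in pretreatment, 0.662% (0.504 to 0.853) in continuous, 0.392% (0.275 to 0.543) in chronic, 0.373% (0.300 to 0.458) in acute, 0.380% (0.303 to 0.470) in irradiated and 0.282% (0.210 to 0.372) in normal skin. Intervals here and below cover counting error only, and with 1 library per label no test between labels was possible. The gated cells numbered 19 of 1499, 59 of 8916, 36 of 9180, 90 of 24132, 84 of 22123 and 50 of 17709 kept cells in that order.

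Irradiated minus normal skin differed by 0.0974 percentage points, with an interval of -0.0207 to 0.213 that includes no difference. Pretreatment exceeded irradiated skin by 0.888 points (0.377 to 1.60). As an alternative, cells with at least 1000 UMIs were thinned to 1000 before the gate, and shallower cells were left out. That left out 103 cells in pretreatment, 509 in continuous, 729 in chronic, 7954 in acute, 5460 in irradiated and 5330 in normal skin. The pretreatment share was then 0.358% and its difference from irradiated skin 0.0701 points (-0.189 to 0.552). Pretreatment cells were the deepest, with a median of 9651 UMIs over all kept cells against 1640 in irradiated skin, and 10 of the 19 carried Cd209a. Continuous DFO exceeded irradiated skin by 0.282 points (0.100 to 0.488), and by 0.259 points (0.0854 to 0.456) after thinning. Where Il1rl1 was required the difference was 0.0951 points, with an interval of -0.0238 to 0.238 that includes none. Chronic minus irradiated skin was 0.0125 points (-0.136 to 0.181), and acute minus irradiated skin -0.00675 points (-0.123 to 0.108). Chronic minus acute was 0.0192 points (-0.126 to 0.186). Continuous minus pretreatment was -0.606 points (-1.33 to -0.0680), and 0.189 points (-0.309 to 0.492) after thinning, so that difference turned its direction among the thinned cells.

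Read against lymphocytes, the order of the libraries was another one. Of the cells in 4 lymphoid gates together (gated cells, T cells with Cd4, gamma-delta T cells and natural killer cells), the gated cells were 42.2% (27.7 to 57.9, 19 of 45 cells) in pretreatment, 12.8% in continuous, 5.29% in chronic, 14.0% in acute, 16.7% in irradiated and 12.0% in normal skin. Continuous DFO thus stood above irradiated skin as a share of all cells and 3.90 points below it as a share of these lymphocytes, with an interval of -8.48 to 0.732 that includes no difference. Chronic DFO was 11.4 points below irradiated skin (-15.3 to -7.67).

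**Figure D2:**
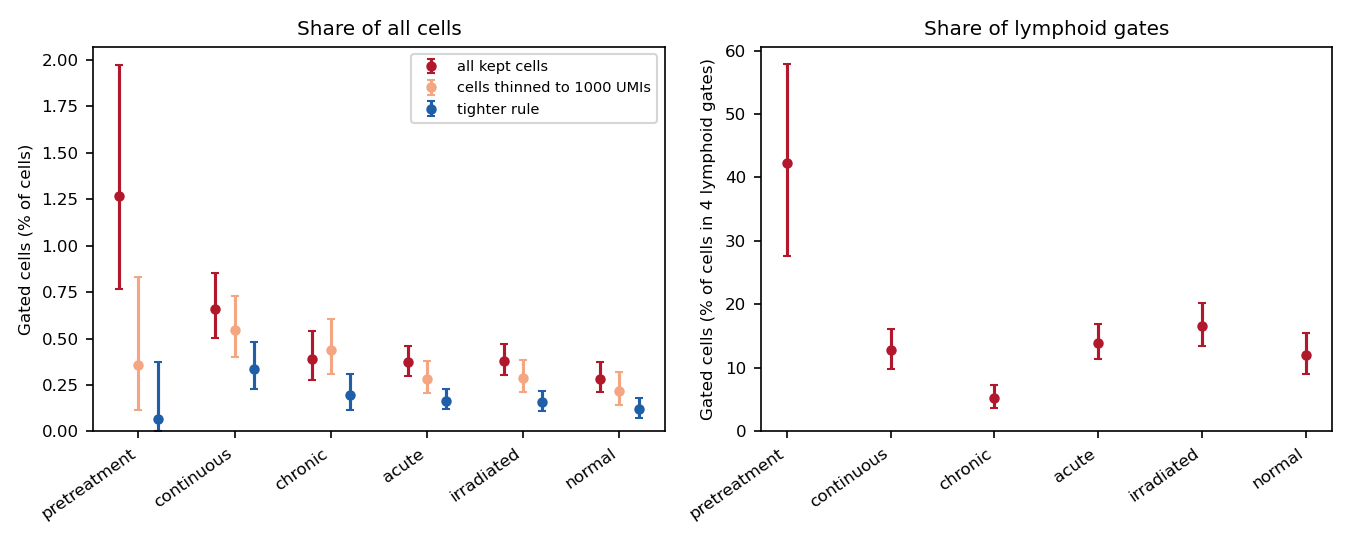
Gated cells as a percent of all kept cells (left, with the gate as given, after thinning to 1000 UMIs per cell without the shallower cells, and under the tighter gate) and as a percent of the 4 lymphoid gates (right) in each library, with bars for exact 95% binomial intervals. Pretreatment stood at 0.358% after thinning and at 0.0667% under the tighter gate, and continuous DFO at 0.547% and 0.337%.

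The gated cells were next compared with other lymphocytes of the same libraries. The T cell gate with Cd4 (CD4 T) held 873 cells with Cd3 and Cd4 UMIs and without Foxp3 or Cd8, the gamma-delta T gate 1398 cells with Cd3 and Trdc UMIs, and the natural killer (NK) gate 144 cells with Ncr1 or Klrb1c and no Cd3. UMIs were summed per library and gate and tested with edgeR's quasi-likelihood test with library as a block. Genes used by any gate were left out, p-values were adjusted by the Benjamini-Hochberg method over all genes tested, and 0.05 was the threshold. These p-values measure how the difference between gates varied over libraries that differ in treatment, 6 for the T cell gates and 4 for NK cells. The separation of T cell from non-T cell genes is a check of the gates, since lacking Cd3 selects against T cells.

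Against CD4 T cells, gated cells were higher in 148 of 2558 genes (5.79%) and lower in 61 (2.38%). Each of the 6 libraries moved these counts by more than 1.5 times when left out. The counts were 243 higher and 156 lower without pretreatment, 18 and 11 without continuous, 36 and 16 without chronic, 88 and 34 without acute, 44 and 16 without irradiated, and 5 and 1 without normal skin. Of the 148 higher genes, 86 reached their highest level among the skin's other gates in neutrophils or macrophages. The summed neutrophil list was at 83.2 to 7742 CPM in gated cells and at 32.9 to 8651 CPM in CD4 T cells, and the macrophage list at 1418 to 3533 CPM in gated cells and at 49.3 to 2744 CPM in CD4 T cells. The part of these transcripts in the results was not tested. Median depth from pretreatment to normal skin was 8946, 1734, 1667.5, 1273.5, 1258 and 1332.5 UMIs in gated cells. It was 4941, 2879.5, 2497, 1415, 1689 and 1947 UMIs in CD4 T cells. Median mitochondrial shares were 3.275%, 5.09%, 4.75%, 6.02%, 5.46% and 5.04% in gated cells. Over all kept cells they were 3.45%, 3.07%, 3.15%, 4.07%, 3.96% and 3.92%. The part of depth and cell quality was not tested either.

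Of 11 tested transcription factors of the innate lymphoid lineages, 1 rose against CD4 T cells and 0 fell, near the 5.79% and 2.38% over all genes, with a median log2 fold change of -0.03 (0.00 over all genes). The 1 was Lmo4, a LIM-domain partner of transcription factors, at a log2 fold change of 2.55 (SE 0.38, adjusted p = 0.00888, edgeR), higher in 6 of 6 libraries. Lmo4 had 227, 425, 693, 261, 200 and 291 CPM in gated cells from pretreatment to normal skin, against 0, 57.1, 52.4, 79.6, 113 and 53.9 CPM in CD4 T cells, so the ranges did not overlap. Without normal skin the adjusted p of Lmo4 was 0.0523. Rora had 458, 1595, 1890, 987, 940 and 1445 CPM in gated cells and 1052, 1109, 1783, 1442, 1673 and 1287 CPM in CD4 T cells. Its ranges overlapped widely (log2 fold change -0.19, adjusted p = 0.609, edgeR), as did those of Id2 (0.41, adjusted p = 0.139).

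Among 13 tested genes of ILC2 receptors, 0 rose and 1 fell against CD4 T cells, beside 5.79% and 2.38% over all genes. That gene was Thy1, which encodes a surface protein of T cells and of mouse ILC2s, at a log2 fold change of -1.52 (SE 0.22, adjusted p = 0.00888, edgeR). Thy1 had 83.2, 213, 347, 206, 180 and 134 CPM in gated cells, against 394, 589, 539, 672, 538 and 646 CPM in CD4 T cells, and the ranges did not overlap. Without normal skin its adjusted p was 0.0509. Icos did not pass, at 680, 1194, 1906, 953, 998 and 1178 CPM in gated cells and 1660, 1507, 1670, 1560, 1807 and 1538 CPM in CD4 T cells (log2 fold change -0.47, adjusted p = 0.105). Neither did Il2ra (-0.62, adjusted p = 0.332) nor Il18r1 (0.14).

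Effector genes split. Of 14 tested, 2 rose against CD4 T cells (Il6 and the chemokine gene Ccl4) and 3 fell (Penk, Il22 and Tnfsf11), beside 5.79% and 2.38% over all genes. Il5 and Il13 were not among the tested genes. Il6, a cytokine of acute inflammation, had the largest rise of the genes that met the naming rule, at a log2 fold change of 3.68 (SE 0.54, adjusted p = 0.00888, edgeR). It had 46.2, 507, 189, 254, 283 and 352 CPM in gated cells and 0, 9.02, 2.44, 66.8, 68.7 and 23.9 CPM in CD4 T cells, higher in 6 of 6 libraries. Other cell types also held Il6, with 35.3 to 1557 CPM in the 9 to 30 mast cells of a library, 168.5 to 748 CPM in fibroblasts, 33.0 to 291 CPM in macrophages and 0 to 147 CPM in neutrophils. The part of their RNA in the rise was not tested. Without normal skin its adjusted p was 0.0509. Areg, which encodes the growth factor amphiregulin, did not differ beyond its spread (0.19, adjusted p = 0.790), with 268 to 702 CPM in gated cells and 218 to 856 CPM in CD4 T cells. Penk, which encodes the opioid precursor proenkephalin, fell by 1.30 on the log2 scale (adjusted p = 0.0425).

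**Figure D3:**
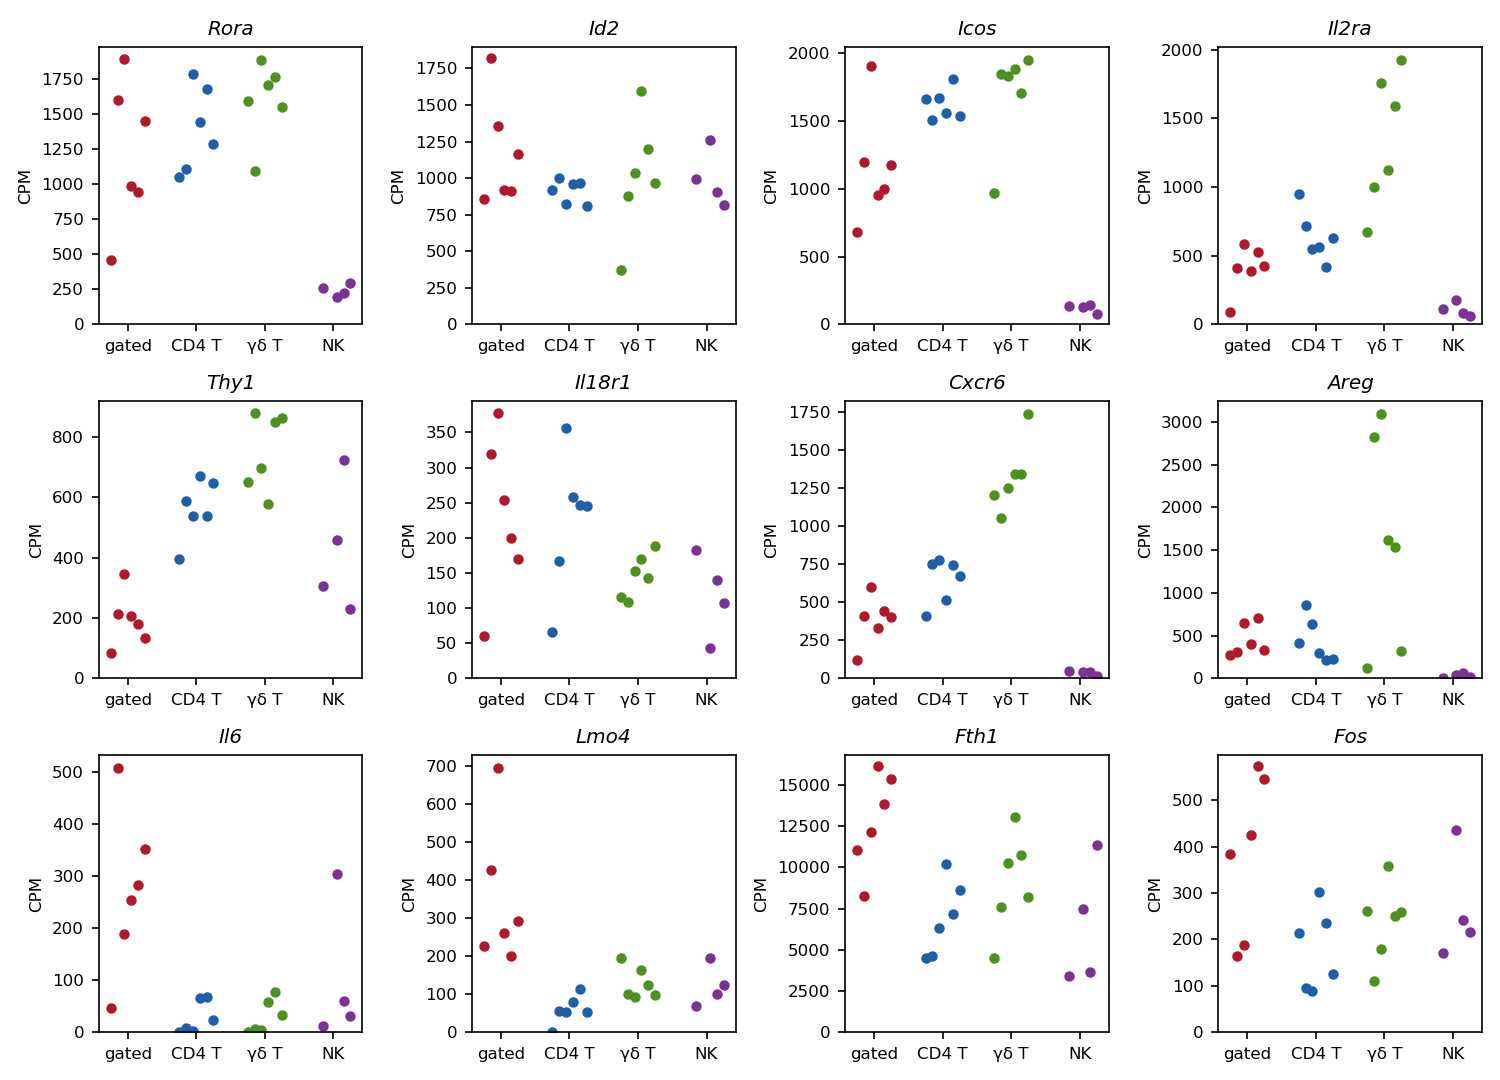
CPM of 12 genes in gated cells, CD4 T, gamma-delta T and NK gates (panels are genes; points are libraries from pretreatment on the left to normal on the right within each gate, with at least 10 cells). Il6 and Lmo4 lay above CD4 T cells in every library and Thy1 below, whereas the points of Rora, Icos and Areg overlapped between gated and CD4 T cells.

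Some immediate early and iron-handling genes were higher in gated than in CD4 T cells, and no tested gene of these lists passed as lower. Over all genes, 5.79% were higher and 2.38% lower. Of 21 tested genes of activator protein 1 and the immediate early response, 8 rose (Nr4a2, Klf4, Fosb, Junb, Fos, Klf6, Dusp1 and Ier3) and 0 fell, with a median log2 fold change of 0.59. Fos had 384, 164, 189, 425, 573 and 546 CPM in gated cells and 214, 96.2, 89.0, 302, 234 and 126 CPM in CD4 T cells, higher in all 6 libraries (log2 fold change 1.18, adjusted p = 0.0200, edgeR). Of 17 genes of NF-kB feedback 3 rose (Zfp36, Birc3 and Rel), and 3 of 8 genes of iron handling and hypoxia rose (Ftl1, Hmox1 and Fth1). Fth1, the heavy chain of the iron store ferritin, had 11070, 8235, 12150, 16160, 13830 and 15360 CPM in gated cells and 4520, 4617, 6348, 10180, 7186 and 8642 CPM in CD4 T cells. Its log2 fold change was 1.01 (SE 0.08, adjusted p = 0.000143, edgeR). Fth1 reached 29140 to 37990 CPM in neutrophils. Of the 27 named genes called against CD4 T cells, Fth1 and Fgl2 kept the call without each library in turn, and all 27 kept it without pretreatment.

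The counts of the lists below stand beside 5.79% higher and 2.38% lower over all genes. In the list of stress and p53 genes 1 of 13 rose (Cdkn1a), near the share over all genes. None of 13 genes of STAT5 and survival and none of 7 interferon genes passed, although the interferon median was 0.74. Of 7 proliferation genes, 2 fell (Mcm3 and Hmgb2), with a median of -1.04, and 5 did not pass. Likewise, genes of homing and retention fell in 2 of 17, the integrin gene Itgal and the chemokine receptor gene Cxcr6 (log2 fold change -0.73, adjusted p = 0.0374). Other large rises in edgeR included the macrophage elastase gene Mmp12 (2.67, adjusted p = 0.0119), Ccl9 (2.37, adjusted p = 0.0236) and Fgl2 (2.09, adjusted p = 0.00888). Csf2rb, the chain that IL-3, IL-5 and GM-CSF receptors share, rose by 2.52 (adjusted p = 0.0257, edgeR). It was at 463 CPM in gated cells and 1305 CPM in mast cells over all libraries. The summed mast or basophil list was at 4.62, 245, 268, 103, 25.7 and 48.6 CPM in gated cells from pretreatment to normal skin. In CD4 T cells it was at 0, 4.01, 0, 6.37, 28.3 and 18.0 CPM. The part of mast cell or basophil RNA was not tested. The T cell signalling genes Lck (-2.06, adjusted p = 0.0128), Cd5 (-1.92), Cd6 (-1.91), Themis (-1.82) and Zap70 (-1.79) were among the largest falls, as was Tnfsf11 (-2.38, adjusted p = 0.0200), and 6 of 7 tested T cell markers fell, which the lack of Cd3 in the gate favours.

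**Figure D4:**
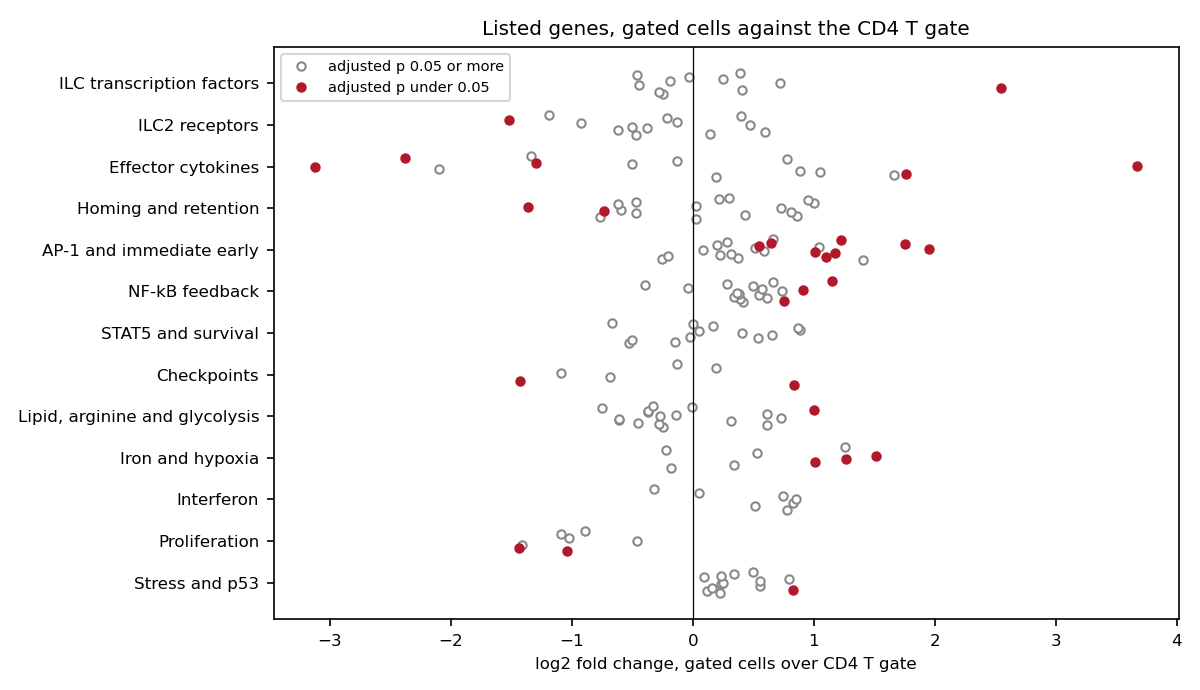
Log2 fold change of gated cells against CD4 T cells (x axis) for each tested gene of 13 gene lists (y axis); filled points passed an adjusted p of 0.05 in edgeR. Filled points of the immediate early and iron lists lie right of 0, at 8 of 21 and 3 of 8 genes, and those of the transcription factor and receptor lists number 1 each.

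Against gamma-delta T cells, gated cells were higher in 241 of 2845 genes (8.47%) and lower in 142 (4.99%). Il17a had 0, 8.18, 819, 466, 212 and 158 CPM in gated cells and 757, 4664, 3125, 2181, 3810 and 2166 CPM in gamma-delta T cells. Its log2 fold change was -3.76 (adjusted p = 0.00501, edgeR), and Il17f fell by 3.38 as well. Among receptors, Tnfrsf18, a costimulatory member of the tumour necrosis factor (TNF) receptor family, was at 92.5, 196, 173, 96.0, 90.1 and 109 CPM in gated cells, against 68.0, 11.7, 10.3, 8.51, 11.1 and 12.1 CPM in gamma-delta T cells (log2 fold change 3.21, adjusted p = 0.00177). Il2ra ran the other way, at 92.5, 409, 583, 391, 528 and 425 CPM in gated cells and 670, 1000, 1756, 1122, 1589 and 1927 CPM in gamma-delta T cells (-1.71, adjusted p = 0.000722). Il6 again rose (3.43, adjusted p = 0.00229), while Cxcr6 (-1.79, adjusted p = 0.00177), Thy1 (-1.95, adjusted p = 0.00114), Cd69 (adjusted p = 0.00716) and Icos (-0.51, adjusted p = 0.0377) fell. Iron and hypoxia genes rose in 5 of 8 (Ftl1, Hmox1, P4ha1, Vegfa and Fth1). Arg1, the enzyme arginase 1 that mouse ILC2s express, rose by 1.52 on the log2 scale (adjusted p = 0.0165, edgeR), higher in 4 of 6 libraries, and its adjusted p was 0.0558 without normal skin. Over all libraries Arg1 was at 183 CPM in gated cells and 436 CPM in macrophages, and the part of their RNA was not tested. Areg did not pass against gamma-delta T cells (-1.28, adjusted p = 0.0922).

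Of the 20 named genes called against gamma-delta T cells, 13 kept the call without each library in turn, Il17a, Il17f, Il2ra, Thy1, Tnfrsf18, Cxcr6, Cd69 and Il6 among them. The count of higher genes was 137 without continuous, 141 without chronic and 89 without normal skin, and that of lower genes 68 without normal skin. Of the 241 higher genes, 133 were highest in neutrophils or macrophages among the skin's other gates. All 3 tested dendritic markers (H2-Ab1, H2-Aa and Cd74) and 3 of 4 macrophage markers (C1qb, C1qa and Lyz2) were among the higher genes.

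Against NK cells, gated cells were higher in Icos, Rora, Areg and Il2ra. In the 4 libraries with at least 10 NK cells, 85 of 1462 genes were higher (5.81%) and 69 lower (4.72%). Icos had 1194, 953, 998 and 1178 CPM in gated cells of continuous, acute, irradiated and normal skin, and 137, 131, 141 and 77.2 CPM in NK cells (log2 fold change 3.17, adjusted p = 0.000121, edgeR). Rora was at 1595, 987, 940 and 1445 CPM in gated cells and 262, 196, 221 and 293 CPM in NK cells (2.36, adjusted p = 0.000121). Areg was at 311, 404, 702 and 328 CPM in gated cells and 0, 43.6, 60.3 and 15.4 CPM in NK cells (4.03, adjusted p = 0.000357). Il2ra (2.04, adjusted p = 0.00233), Cxcr6 (3.42, adjusted p = 0.000264) and Tnfrsf4 (3.90, adjusted p = 0.00123), a costimulatory receptor, rose too. All 7 tested NK markers fell, among them the granzyme gene Gzma (-5.67), which the lack of Ncr1 and Klrb1c in the gate favours, and Id2, which both lineages need, did not pass (0.27, adjusted p = 0.455). In all, 4 of 8 tested ILC2 markers rose (Icos, Il2ra, Areg and Rora) and 1 fell (Thy1, -1.14, adjusted p = 0.0272). With them rose 2 of 3 tested regulatory T cell markers (Ctla4 and Tnfrsf4), 1 of 3 T cell markers (Trbc2, while Trbc1 fell), 1 of 3 dendritic markers (Cd74) and 1 of 4 macrophage markers (Lyz2). Of the 16 named genes called, 13 kept the call without each library in turn, and the counts were 46 higher and 42 lower without continuous, 34 and 35 without acute, and 51 higher without irradiated skin.

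Type 2 cytokines were scarce and uneven between libraries. Il5, the growth factor of eosinophils, had 28, 25, 23, 1, 4 and 26 UMIs in gated cells of pretreatment, continuous, chronic, acute, irradiated and normal skin, in 3, 5, 5, 1, 2 and 7 cells. That came to 129.5, 204.4, 362.3, 6.86, 25.7 and 315.7 CPM, low in acute and irradiated skin and higher in the other 4 libraries. One cell held 75% of the pretreatment UMIs and 56% of the continuous ones. Il13, which acts on epithelium and macrophages, had 5, 17, 9, 0, 11 and 0 UMIs, or 23.1, 139, 141.8, 0, 70.8 and 0 CPM, with floors of 20.6 CPM in acute and 36.4 CPM in normal skin for 3 counts in each library. In neutrophils, Il5 was at 0 to 2.54 CPM in each library and Il13 at 0 to 10.6 CPM. Il9 had 0 UMIs in all libraries.

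Counted as cells, 37 of the 338 held Il13 or Il5, namely 4 of 19 in pretreatment, 11 of 59 in continuous, 10 of 36 in chronic, 1 of 90 in acute, 4 of 84 in irradiated and 7 of 50 in normal skin. Both genes were seen in 4 cells. Of the 37 cells, 17 had Il1rl1, and 16 had T cell receptor UMIs, including all 4 of pretreatment and none of these 4 with Il1rl1. After thinning to 1000 UMIs, Il5 was seen in 10.5% of the gated cells of pretreatment, 7.84% of continuous, 12.9% of chronic, 0% of acute, 3.77% of irradiated and 17.7% of normal skin (19, 51, 31, 58, 53 and 34 cells). Acute and irradiated skin thus had the lowest shares at equal depth too, on few cells, and the 0 of 58 in acute skin has an exact 95% upper bound of 6.16%. Il5 stood at 228 CPM in gated cells with T cell receptor UMIs and at 70.1 CPM in those without, or at 169 and 110 CPM when pretreatment was left out.

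Beside 873 CD4 T and 1398 gamma-delta T cells, the 338 gated cells of 83559 kept held a minority of these cytokine transcripts. Their share was nonetheless larger than their share of the cells. They had 107 of the 452 Il5 UMIs of all kept cells (23.7%), against 61 in CD4 T cells (13.5%), 95 in other cells with Cd3 UMIs (21.0%) and 147 in cells of no gate (32.5%). For Il13 they held 42 of 630 UMIs (6.67%), against 118 in CD4 T cells (18.7%), 213 in other Cd3 cells (33.8%), 49 in mast cells (7.78%) and 161 in cells of no gate (25.6%). For Areg the share was 332 of 33509 UMIs (0.991%). Calca, which encodes a calcitonin gene-related peptide and is made by some ILC2s in mice, had 81 of 1045 UMIs (7.75%) in gated cells and 262 (25.1%) in gamma-delta T cells.

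Other effectors varied in their own ways. Areg was at 268, 311, 646, 404, 702 and 328 CPM in gated cells from pretreatment to normal skin, and 1 cell held 56.9% of the irradiated UMIs. Calca was at 13.9, 213, 173, 27.4, 180 and 109 CPM, low in pretreatment and acute skin. Arg1 was at 0, 0, 126, 596, 245 and 134 CPM, absent from the counts of pretreatment and continuous skin and highest in acute skin. Il17a, a type 3 cytokine, was at 0, 8.18, 819, 466, 212 and 158 CPM, highest in chronic skin. Cells with Il17a, Il17f or Il22 numbered 57, of which 36 had T cell receptor UMIs and 4 also had Il13 or Il5. In neutrophils Il17a was seen in 0% to 3.90% of cells. Csf2, the gene of GM-CSF, was at 0, 40.9, 78.8, 20.6, 19.3 and 85.0 CPM.

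**Figure D5:**
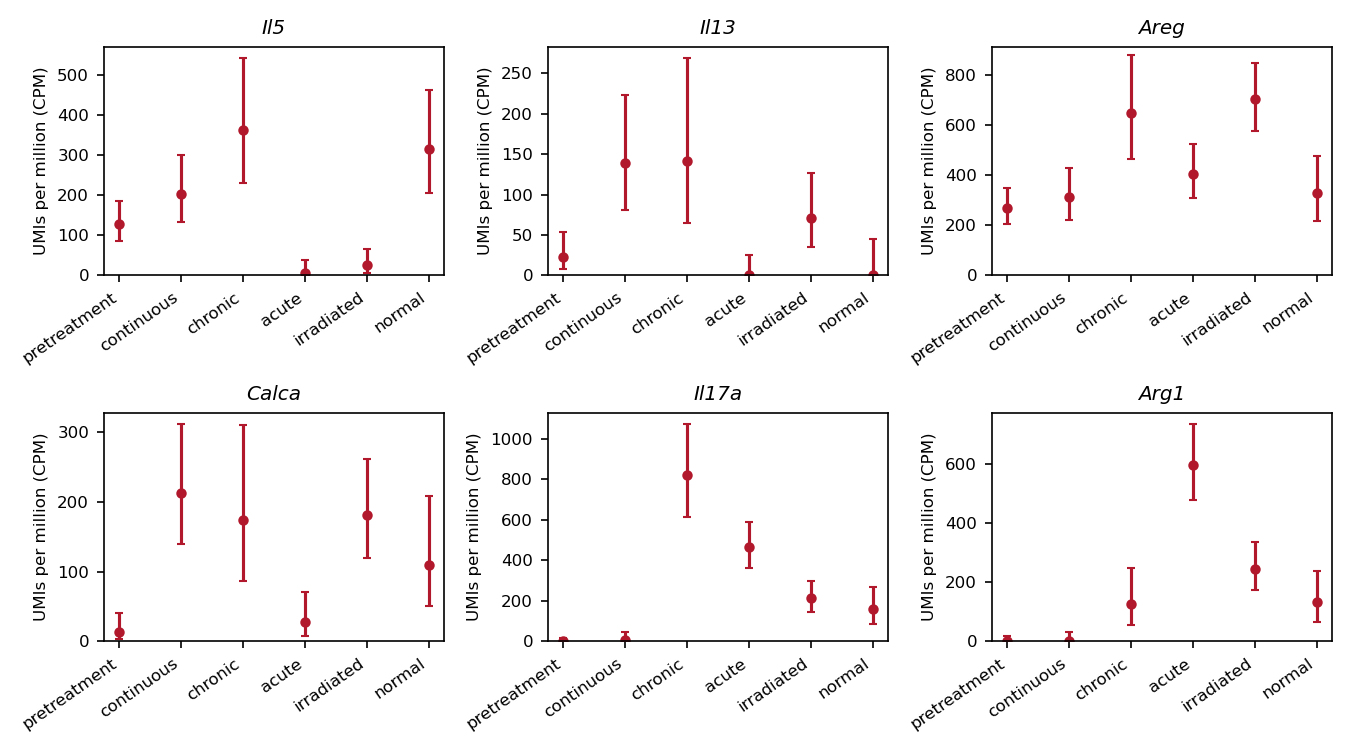
CPM of 6 effector genes in gated cells of each library (panels are genes, the x axis gives the library), with bars for 95% Poisson intervals of the summed UMIs, which cover counting error only. Il5 was lowest in acute and irradiated skin (6.86 and 25.7 CPM), Arg1 highest in acute skin (596 CPM) and Il17a highest in chronic skin (819 CPM).

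Between labels, levels were compared as ratios of summed UMIs, called past 2-fold among genes with at least 20 UMIs over both libraries, with exact Poisson intervals and no test. All 4 DFO comparisons share the irradiated library. In irradiated against normal skin, 163 of 2098 genes (7.77%) were at least 2-fold higher and 110 (5.24%) at least 2-fold lower. Among 13 effector genes with enough UMIs, 4 were higher (Il10, Areg, Ccl4 and Tnf) and 1 lower (Il5). The direction of Areg turned in cells without T cell receptor UMIs, to a log2 ratio of -0.44, and under the tighter gate, to -0.42, and 1 cell held 56.9% of its irradiated UMIs. Ccl4, a chemokine for T cells and macrophages, was at 3752 CPM in irradiated cells and 1239 CPM in normal cells, a ratio of 3.03 (2.45 to 3.78) from 60 and 24 cells. Tnf, the inflammatory cytokine gene, was at 1036 CPM in irradiated and 437 CPM in normal cells (2.37, 1.64 to 3.50). Both genes were higher still in neutrophils, at 15740 CPM in irradiated and 11740 CPM in normal skin for Ccl4, and the part of neutrophil RNA was not tested. Il5 was at 25.7 CPM in irradiated and 315.7 CPM in normal cells (0.0815, 0.0207 to 0.235). The normal cells with Il5 held 12, 4, 3, 3, 2, 1 and 1 UMIs, and the Poisson interval does not take such clustering into account.

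Rsad2, an interferon-induced antiviral enzyme, had 68 UMIs in irradiated and 2 in normal cells, a ratio of 18.0 (4.80 to 152), with 54.4% of them in 1 cell. Rora was at 940 CPM in irradiated and 1445 CPM in normal cells (0.650, 0.507 to 0.836). Rgs2, a regulator of G protein signalling, was at 380 and 1044 CPM in irradiated and normal cells (0.364, 0.257 to 0.512). No receptor gene of 12 passed 2-fold. The highest named ratios rested on 1 to 3 cells, such as Ptn, a heparin-binding growth factor gene with 88 UMIs in 1 irradiated cell and 0 in normal cells (at least 15.6-fold higher against a floor of 3 counts), and Krt8, with 53 UMIs in 1 irradiated cell.

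In pretreatment against irradiated skin, 425 of 2944 genes (14.4%) were 2-fold higher and 587 (19.9%) lower. Scaling without mitochondrial and ribosomal genes shifted the median log2 ratio of all genes by 0.11 here. The higher genes with the largest bounds belonged to dendritic and myeloid cells: Mgl2, a lectin gene of dendritic cells and macrophages, had 244 UMIs in 10 of the 19 pretreatment cells and 0 in irradiated cells (at least 58.4-fold higher), and Ear2 had 114 in 9 cells and 0 (at least 27.3-fold higher). Ftl1, the ferritin light chain, was at 4966 CPM in pretreatment and 2040 CPM in irradiated cells (2.43, 2.15 to 2.77). Of 13 effector genes 1 was higher (Il5, 5.03, 1.76 to 19.7) and 11 lower. The 3 pretreatment cells with Il5 held 21, 5 and 2 UMIs, so the ratio rested mostly on 1 cell, which the Poisson interval does not take into account. Il2ra was at 92.5 CPM in pretreatment and 528 CPM in irradiated cells (0.175, 0.102 to 0.288), and Rora at 458 CPM in pretreatment and 940 CPM in irradiated cells (0.487, 0.374 to 0.633). Arg1 had 0 UMIs in pretreatment and 38 in irradiated cells (at least 17.6-fold lower). Egr1, an immediate early factor, was at 27.7 CPM in pretreatment and 554 CPM in irradiated cells (0.0501, 0.0179 to 0.114). With the tighter gate, which leaves 1 pretreatment cell, the directions of Rora, Il2ra, Areg, Thy1 and Jun turned.

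In continuous against irradiated skin, some ILC transcription factor and receptor genes were higher and several immediate early genes and Tnf lower. In all, 171 of 2323 genes (7.36%) were 2-fold higher and 340 (14.6%) lower, while 4 of 11 transcription factors were higher (Lmo4, Tcf7, Bcl11b and Zeb1) and 0 lower, with a median log2 ratio of 0.76 against -0.07 over all genes. Of 15 receptors, 5 were higher (Il18rap, Ramp1, Tnfrsf18, Kit and Il2rg) and 1 lower (Tnfrsf1b). Rora was at 1595 CPM in continuous and 940 CPM in irradiated cells (1.70, 1.36 to 2.12). Ramp1, a subunit of the receptor for calcitonin gene-related peptide, had 18 UMIs in 9 continuous cells and 3 in irradiated cells (7.62, 2.23 to 40.4). Il5 was at 204.4 CPM in continuous and 25.7 CPM in irradiated cells (7.94, 2.74 to 31.4), but the ratio of Il13 (1.96, 0.868 to 4.64) included 1. The 5 continuous cells with Il5 held 14, 6, 2, 2 and 1 UMIs, and the Poisson interval does not take such clustering into account.

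Of 21 immediate early genes, 6 were lower in continuous than in irradiated cells (Atf3, Dusp2, Jun, Fos, Dusp1 and Egr1) and 1 higher (Btg2). The counts of lists here stand beside 14.6% lower and 7.36% higher over all genes. The median log2 ratio of the immediate early list was -0.22, against -0.07 over all genes. Jun was at 65.4 CPM in continuous and 521 CPM in irradiated cells (0.126, 0.0524 to 0.259), with 45.7% of the irradiated UMIs in 1 cell, and Egr1 at 98.1 and 554 CPM (0.177, 0.0882 to 0.326). Tnf was at 40.9 CPM in continuous and 1036 CPM in irradiated cells (0.0395, 0.0126 to 0.0940). Il17a had 1 UMI in continuous and 33 in irradiated cells (0.0385, 0.000947 to 0.230). Among 8 genes of iron handling and hypoxia, Hmox1, which frees iron from haem, was at 90.0 CPM in continuous and 798 CPM in irradiated cells (0.113, 0.0549 to 0.209), Vegfa was lower as well, and 0 were higher. Fth1 was at 8235 CPM in continuous and 13830 CPM in irradiated cells (0.595, 0.552 to 0.642). The neutrophil list moved in the same direction, at 1145 CPM in continuous and 7742 CPM in irradiated gated cells, and its part was not tested. Rgs2 ran against it, at 1210 CPM in continuous and 380 CPM in irradiated cells (3.19, 2.34 to 4.39). Gzmc, a granzyme gene, had 40 UMIs in continuous and 1 in irradiated cells, 67.5% of them in 1 cell.

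In chronic against irradiated skin, 154 of 1897 genes (8.12%) were 2-fold higher and 341 (18.0%) lower. Transcription factors were higher in 4 of 10 (Lmo4, Rora, Bcl11b and Nfil3) and lower in 0, with a median log2 ratio of 0.78 against -0.07 over all genes. Of 13 receptors, 5 were higher (Il18rap, Ramp3, Il2rb, Il2rg and Cysltr1) and 1 lower (Tnfrsf1b). Lmo4 was at 693 CPM in chronic and 200 CPM in irradiated cells (3.47, 2.15 to 5.69). Rora was at 1890 CPM in chronic and 940 CPM in irradiated cells (2.01, 1.57 to 2.58). Il2rb, a chain of the IL-2 and IL-15 receptors, was at 1260 and 405 CPM in chronic and irradiated cells (3.11, 2.21 to 4.40). Icos was at 1906 CPM in chronic and 998 CPM in irradiated cells (1.91, 1.49 to 2.44), just under 2-fold. The ILC2 marker list as a whole was at 7940 CPM in chronic and 5065 CPM in irradiated cells.

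Effector genes of chronic skin included both type 2 and type 3 cytokines. Of 14 with enough UMIs, 5 were 2-fold higher than in irradiated cells (Il17a, Tnfsf8, Tgfb1, Il13 and Il5) and 2 lower (Il10 and Tnf). The counts of lists in this paragraph stand beside 8.12% higher and 18.0% lower over all genes. Il5 was at 362.3 CPM in chronic and 25.7 CPM in irradiated cells (14.1, 4.81 to 56.0). The chronic cells with Il5 held 9, 7, 4, 2 and 1 UMIs, and the Poisson interval does not take such clustering into account. Il17a was at 819 CPM in chronic and 212 CPM in irradiated cells (3.86, 2.45 to 6.16), from 8 and 9 cells. Most gated cells with Il17a, Il17f or Il22 had T cell receptor UMIs, at 7 of 9 in chronic and 8 of 12 in irradiated skin. The ratio of Il13 (2.00, 0.734 to 5.32) included 1. Tnf was at 189 CPM in chronic and 1036 CPM in irradiated cells (0.182, 0.0923 to 0.328). Of 21 immediate early genes 6 were lower (Atf3, Dusp2, Fos, Dusp1, Ier3 and Egr1) and 1 higher (Klf4), and 4 of 8 interferon genes were lower (Oasl1, Ifitm3, Bst2 and Rsad2). Of the Atf3 UMIs of irradiated cells, 76.2% came from 1 cell. Eprs, a transfer RNA synthetase gene, was at 898 CPM in chronic and 77.2 CPM in irradiated cells (11.6, 6.17 to 23.8), and in continuous cells at 630 CPM (8.15, 4.41 to 16.5). The neutrophil list stood at 1843 CPM in chronic and 7742 CPM in irradiated gated cells, and its part was not tested.

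Acute DFO cells were closest to irradiated ones in the number of genes past 2-fold, with 130 of 2653 (4.9%) higher and 121 (4.56%) lower. The summed UMIs of gated cells behind such counts were unequal, at 145884 in acute and 155385 in irradiated skin. They were 216267 in pretreatment, 122283 in continuous and 63479 in chronic skin. The part of these totals in the counts was not tested. Transcription factors were higher in 1 of 10 (Bcl11b), and 0 of 12 receptors passed in either direction. Rora was at 987 CPM in acute and 940 CPM in irradiated cells (1.05, 0.829 to 1.33) and Icos at 953 and 998 CPM (0.955, 0.754 to 1.21). Arg1 was at 596 CPM in acute and 245 CPM in irradiated cells (2.44, 1.65 to 3.67), seen in 22 and 18 cells. Il17a was at 466 CPM in acute and 212 CPM in irradiated cells (2.20, 1.43 to 3.44), a direction that turned in cells without T cell receptor UMIs. Calca ran the other way, at 27.4 CPM in acute and 180 CPM in irradiated cells (0.152, 0.0388 to 0.435). Hbegf, a growth factor gene, was at 137 and 32.2 CPM in acute and irradiated cells (4.26, 1.55 to 14.5). Il5 had 1 UMI in acute and 4 in irradiated cells, too few for a comparison.

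Genes of other cell types were prominent in the acute gated cells. Gpihbp1, a protein of capillary endothelium, had 22 UMIs in 5 acute cells and 0 in irradiated cells (at least 7.81-fold higher), and Ly6c1 had 41 and 4 (10.9, 3.95 to 42.0). The endothelial list was at 631 CPM in acute and 109 CPM in irradiated gated cells, the erythroid list at 3345 CPM in acute and 51.5 CPM in irradiated cells, and the fibroblast list at 1254 CPM in acute and 496 CPM in irradiated cells. The erythroid level rested on few cells: Hbb-bs was seen in 6 acute and 5 irradiated gated cells, Hba-a1 in 4 and 2, Hbb-bt in 2 and 1 and Alas2 in 1 and 0. Fn1, a matrix gene, was at 768 CPM in acute and 245 CPM in irradiated cells (3.14, 2.16 to 4.66). The part of RNA from other cells in these ratios was not tested. The lowest ratios of the acute library (Krt8, Krt19 and Epcam) rested on 1 irradiated cell each.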

How the data were processed

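Skin cells were sequenced with 10x Genomics 3' v3 chemistry on a NextSeq 500 after collagenase digestion, per the labels' protocols. The authors deposited raw UMI counts per gene and barcode for each of 6 libraries; Cell Ranger 6.0.0 wrote them per the file headers, and the submitters' processing notes name Cell Ranger, Seurat 5.0.1 and the pig genome Sscrofa11.1. All 32285 gene features carry mouse identifiers. Whether the authors removed ambient RNA is not given in the sources used here.

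From the deposited counts, cells were kept at the limits given above, gates were set on raw UMIs, and gene UMIs were summed per library and gate. The members and gene lists were chosen with earlier results of these data known. Shares have exact (Clopper-Pearson) 95% intervals, differences of shares intervals from the distances to both shares' bounds, and ratios of summed UMIs exact conditional binomial 95% intervals. A fold against 0 UMIs is a bound at a floor of 3 counts per library. Between gates, edgeR 4.0.16 (R 4.3.3, TMM, filterByExpr, quasi-likelihood test) used library as a block, because both gates come from the same library, over libraries with at least 10 cells in each gate. DESeq2 1.42.0, median-ratio size factors, other filters, thinning to 1000 UMIs, stricter gates, each library left out and no block were alternatives. Scrublet in scanpy 1.11.5 marked doublets. Where its own threshold marked under 0.5% of a library's cells, the highest scores were taken at a rate of 0.8% per 1000 barcodes, up to 10%. Marked cells made up 0%, 0%, 5.56%, 10.0%, 19.05% and 14.0% of the gated cells from pretreatment to normal skin. Of all kept cells they were 1.47%, 2.05%, 7.78%, 10.0%, 22.0% and 10.0%. Doublets were left out only as an alternative, so the irradiated gated cells, shared by all 4 DFO comparisons, had the largest marked share. The edgeR fits were tested on simulated data with 200 changed genes, and the ratio intervals on simulated counts (seed 1).

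Genes were named by a rule. Between gates these were the 10 highest and 10 lowest fold changes (5 and 5 for the other gates) among called genes with 1 direction in every library, at least 50 CPM and a level of at least 0.25 of the highest other gate of the skin. Between labels they were the 5 highest and 5 lowest ratios with at least 20 UMIs and 100 CPM and an interval without 1. A fixed set of 33 genes and the 2 highest and 2 lowest of each list were added. Listed genes past a threshold that are named beside a count were chosen after their values were seen, as were subsets by T cell receptor, Foxp3 and Cd209a UMIs. The interferon list in irradiated against normal skin is not reported here.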

Additional observations from a re-analysis of the deposited data

Results flagged for a closer look

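Antibody hashtags were read in 4 libraries and entered no comparison above. A second hashtag above a share of 0.25 of the antibody UMIs was held by 98.9% of the gated cells of the acute library (exact 95% binomial interval 94.0 to 99.97) and by 47.6% of those of the irradiated library (36.6 to 58.8). In the chronic library the share was 16.7%, and in the normal library, the control without radiation, 14.0%. Among all kept cells of these libraries, 20.0% in chronic, 98.3% in acute, 33.9% in irradiated and 11.0% in normal skin held a second hashtag. In irradiated skin, gated cells were 0.305% of the cells with only the hashtag that dominated that library and 0.534% of the cells with a second hashtag.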

How the results depend on the processing

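Depth limits the gate, which rested on 1 UMI of Il7r in 194 of the 338 gated cells. Each label had 1 library, so results between labels have no replicate check, and the cause of each shift below was not tested unless the setting itself removes cells or genes. Over the single named genes, 1352 of the combinations of result and setting between gates kept direction and side of the threshold, 147 lost the call and 44 gained it. Between labels 1064 stayed within the interval, 246 left it and 12 turned their direction.

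As a percent of kept cells in pretreatment, continuous, chronic, acute, irradiated and normal skin, the gated cells stood at 0.734, 0.415, 0.218, 0.191, 0.199 and 0.141 without T cell receptor UMIs, at 0.734, 0.280, 0.142, 0.158, 0.185 and 0.175 where Il1rl1 was required, and at 0.0667, 0.337, 0.196, 0.166, 0.158 and 0.119 under the tighter gate, which was chosen after seeing the data. Where Ptprc was required they stood at 0.437, 0.272, 0.203, 0.231 and 0.203 from continuous to normal skin. Thinning to 1000 UMIs, with shallower cells left out, gave 0.358 in pretreatment, 0.284 in acute and 0.288 in irradiated skin. Pretreatment minus irradiated skin was 0.0701 points after thinning and turned to -0.0915 under the tighter gate. Continuous minus irradiated skin was 0.0951 (-0.0238 to 0.238) with Il1rl1 required. Continuous minus pretreatment turned to 0.189 after thinning and to 0.270 under the tighter gate. As a share of the 4 lymphoid gates, a different denominator, the differences were 4.68 points for irradiated minus normal, 25.6 for pretreatment, -3.90 for continuous (turned), -11.4 for chronic and -2.69 for acute minus irradiated skin, -8.69 for chronic minus acute and -29.5 for continuous minus pretreatment.

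Counts of genes past 2-fold within gated cells moved with the minimum of UMIs and the gate. With at least 10 in place of 20 UMIs they were 476 higher and 326 lower in irradiated against normal, and against irradiated skin 751 and 1111 in pretreatment, 433 and 737 in continuous, 359 and 816 in chronic and 414 and 389 in acute. With Il1rl1 required there were 70 higher and 69 lower in irradiated against normal, 381 lower in pretreatment, 172 lower in continuous, 97 higher and 175 lower in chronic and 57 higher and 70 lower in acute skin. The tighter gate gave 97 and 67 in irradiated against normal, 84 and 298 in pretreatment, 179 lower in continuous, 152 lower in chronic and 68 and 69 in acute skin. Without T cell receptor UMIs there were 388 lower in pretreatment, 219 lower in continuous and 192 lower in chronic skin. With Ptprc required there were 103 higher in irradiated against normal and 85 higher in acute skin, and without cells marked by Scrublet 227 lower in chronic skin.

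On the log2 scale, Areg turned to -0.44 in irradiated against normal and to 0.55 in continuous against irradiated skin without T cell receptor UMIs, to -0.42 in irradiated against normal under the tighter gate, and to 0.0613 in continuous skin with Il1rl1 required. Il17a in acute against irradiated skin turned to -0.26 without T cell receptor UMIs and to -0.25 under the tighter gate. The tighter gate, with 1 cell left in pretreatment, turned Il2ra to 1.45, Jun to 0.57, Areg to 2.57, Thy1 to 4.10 and Rora to 3.07 against irradiated skin, and Thy1 turned to 0.0901 with cells weighted equally.

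Between gates, edgeR with no replicate block for library called 41 higher and 26 lower genes against CD4 T, 115 and 91 against gamma-delta T, and 34 and 42 against NK cells, fewer than with the block. At an unadjusted p under 0.05 the fits with the block called 647, 778 and 388 genes. Left-out libraries moved the counts within 5 to 243 higher and 1 to 156 lower against CD4 T, 89 to 299 and 68 to 200 against gamma-delta T, and 34 to 83 and 35 to 76 against NK cells. No filter on low counts gave 309 and 199, 404 and 370, and 246 higher against the 3 gates in that order. Thinning gave 75 and 37, 94 and 58, and 26 and 17. DESeq2 gave 53 and 43 against NK cells, and the stricter cell filter 128 lower against CD4 T and 45 lower against NK cells. Against CD4 T cells, gated cells with Ptprc gave 94 and 31, those with Il1rl1 56 and 24, and the tighter gate 131 lower.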
